A study of Mus musculus with 54 samples.

Results

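Chemokine, adhesion and acute-phase genes were followed in the wall of mouse ovarian follicles on either side of the site of rupture, with and without an ovulatory stimulus. The genes were Cxcl1, Cxcl12 and Ccl2, which encode chemokines, Cxcr4 and Ackr3, which encode chemokine receptors, Vcam1 and Icam1, which encode adhesion molecules, and Saa3 and C3, which encode an acute-phase protein and a complement protein. They are 9 of the 25149 genes in the deposited tables, found there by symbol. They were selected on their levels and differences across the 4 groups in these libraries, with earlier results of the same data known, so their values and adjusted p-values are a description of these libraries and no independent evidence that the genes differ.

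The follicles were at the secondary stage when taken from CD-1 mice of 14 to 16 days, were cultured in alginate until day 8 and then spent 12 h in medium with FBS, EGF and recombinant FSH. In the post-hCG groups the medium also held hCG, an analog of luteinizing hormone, and the other additions were the same in the 4 groups. Each follicle was cut into the unruptured and the ruptured side of its wall, and without hCG, where no follicle had ruptured, the putative sides were told apart by their shape and a trained image model. Single sides were sequenced with Smart-Seq2, a protocol for small amounts of RNA, which gave 15 libraries of the putative unruptured side and 14 of the putative ruptured side without hCG, and 12 of the unruptured side and 13 of the ruptured side post-hCG.

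The cultured follicle holds granulosa cells and the theca cells that regrow after enzymatic isolation. The study describes the model as free of ovarian stroma, vessels and immune cells. In the labels the tissue is given as cumulus-oocyte complex, but the study states that these complexes were discarded. The summed level of 10 oocyte markers had a median of 0.2 TPM (a share of all transcripts, corrected for transcript length) or less in every group and a highest value of 160 TPM, in putative unruptured replicate 1. The summed level of 10 granulosa markers had a median between 1338 and 13150.5 TPM over the 4 groups. Total counts ran from 1497071 to 2834734 per library. Libraries with and without hCG lay in separate rows of the plate, and within each medium the sides lay in separate blocks of wells, so plate position cannot be told apart from medium or side, and no label gives a batch. Nothing in the labels says which libraries came from different mice, so p-values measure the spread between these libraries only. Nor do they say which libraries of opposite sides came from the same follicle, so the main fits treat all libraries as independent. In bulk samples, fewer cells of a type and less RNA per cell cannot be told apart.

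Chemokines are small secreted proteins that guide moving cells along a gradient by way of receptors on the cell surface. VCAM-1 and ICAM-1 sit on the surface of endothelial and other cells and are held by integrins of passing leukocytes, while serum amyloid A proteins and complement rise in inflammation under NF-kB and C/EBP transcription factors. Ovulation is widely described as an inflammation-like event, in which leukocytes enter the follicle wall after the surge of luteinizing hormone.

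Promoters were read for 7 of the 9 genes from RefSeq sequences of GRCm38.p6, and Ccl2 and Vcam1 were not read. The 250 bases before the start of transcription are shown for the 4 genes that held a match to a motif of these factors, 5′ to 3′ on the strand of the gene and with the match in capitals.
Cxcl1 (chr5:90890995-90891244, plus strand): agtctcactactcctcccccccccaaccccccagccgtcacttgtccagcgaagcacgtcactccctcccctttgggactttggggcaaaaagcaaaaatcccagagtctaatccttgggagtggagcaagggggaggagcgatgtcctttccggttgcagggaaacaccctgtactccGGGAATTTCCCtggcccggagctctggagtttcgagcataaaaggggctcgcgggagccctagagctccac
Ackr3 (chr1:90203730-90203979, plus strand): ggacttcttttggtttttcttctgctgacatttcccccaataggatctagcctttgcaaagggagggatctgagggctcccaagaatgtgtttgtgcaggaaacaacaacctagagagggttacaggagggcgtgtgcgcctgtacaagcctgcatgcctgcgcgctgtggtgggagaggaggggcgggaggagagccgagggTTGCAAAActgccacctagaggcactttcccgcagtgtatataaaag
Saa3 (chr7:46715677-46715926, minus strand): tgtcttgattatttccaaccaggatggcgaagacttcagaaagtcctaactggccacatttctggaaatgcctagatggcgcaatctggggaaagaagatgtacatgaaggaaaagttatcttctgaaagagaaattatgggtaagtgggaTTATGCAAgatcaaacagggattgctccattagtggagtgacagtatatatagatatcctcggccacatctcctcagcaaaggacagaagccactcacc
C3 (chr17:57228137-57228386, minus strand): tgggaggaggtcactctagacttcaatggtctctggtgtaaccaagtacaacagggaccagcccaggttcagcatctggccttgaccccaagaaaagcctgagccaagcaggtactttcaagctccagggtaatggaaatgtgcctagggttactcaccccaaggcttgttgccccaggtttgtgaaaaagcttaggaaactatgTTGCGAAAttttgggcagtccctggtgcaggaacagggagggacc
The capitals in Cxcl1, from −71 to −61 of the start, hold an NF-kB consensus on each strand, and the matches overlap. The capitals in Ackr3 (−47 to −40), Saa3 (−99 to −92) and C3 (−45 to −38) are the C/EBP core TTGCNNAA, which in Saa3 lies on the opposite strand. Both strands from 250 bases before to 50 after the start were searched for all 32851 promoters, of which 8.46% held the NF-kB consensus and 10.8% the C/EBP core. Cxcl12, Cxcr4 and Icam1 held neither in this window. A match describes letters only and says nothing of binding.

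Cxcl1, Vcam1 and Ackr3 had group medians of 43.6 to 1245 TPM without hCG and of 0.2 to 4.03 TPM post-hCG. Icam1 was lower by a smaller factor, Cxcr4 was found mostly post-hCG, and Cxcl12 followed the side more than the medium. Saa3, C3 and, post-hCG, Ccl2 were higher on the unruptured side, and single libraries held much of their counts. The plot of all libraries shows these levels.

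**Figure D1:**
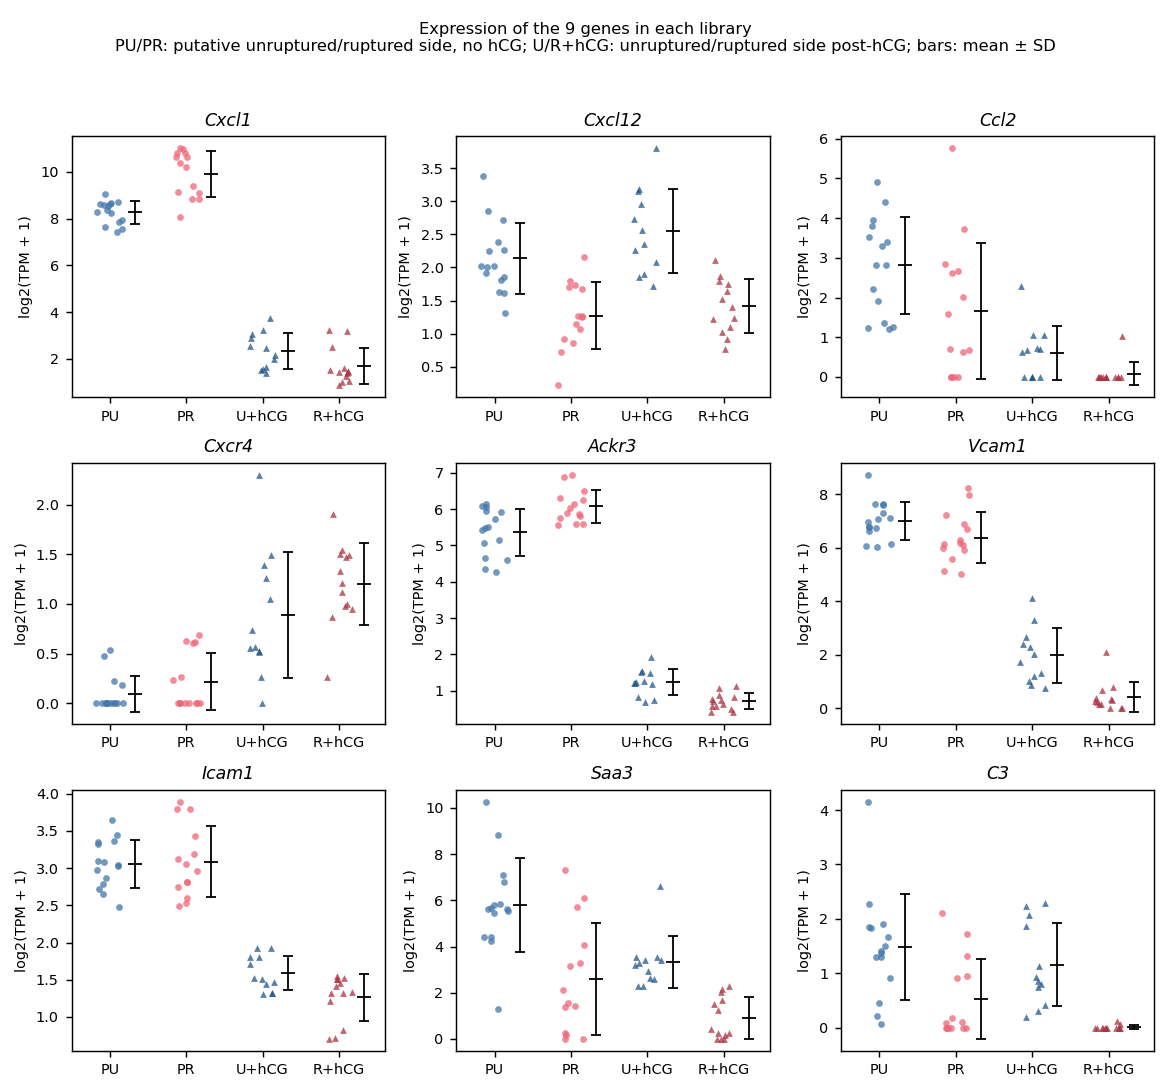
Level of each gene in log2(TPM + 1) on the vertical axis, 1 point per library, in the putative unruptured (PU, n = 15), putative ruptured (PR, n = 14), unruptured post-hCG (U+hCG, n = 12) and ruptured post-hCG (R+hCG, n = 13) groups, with the mean ± SD as bars beside the points and a vertical scale of its own for each gene. For Cxcl1, Ackr3, Vcam1 and Icam1 all points without hCG lie above all points post-hCG.

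Cxcl1 (chr5:90891241-90893115, plus strand, GRCm38) encodes a chemokine that draws neutrophils through the receptor CXCR2. Its level was lowest at 172, median at 326 and highest at 534 TPM on the putative unruptured side, and 269, 1245 and 2070 TPM on the putative ruptured side. The ranges overlapped, but 11 of 14 putative ruptured libraries lay above every putative unruptured library. Post-hCG, the lowest, median and highest levels were 1.62, 4.03 and 12.5 TPM for the unruptured side and 0.84, 1.75 and 8.34 TPM for the ruptured side. All 25 libraries post-hCG lay below all 29 without hCG. The log2 fold change (log2FC) of the putative ruptured over the putative unruptured side was 1.90 ± 0.26 (SE) by edgeR's quasi-likelihood test, a two-sided comparison of counts across all genes. The log2FC with hCG was −6.01 ± 0.30 on the unruptured side, a 64.5-fold lower level (edgeR, adjusted p = 3.83e-17). On the ruptured side it was −8.55 ± 0.42, 374-fold lower (adjusted p = 7.80e-18), and in both comparisons only 1 of all genes tested, 9320 and 8531, had a lower log2FC.

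Cxcl12 (chr6:117168535-117181367, plus strand) encodes the chemokine that both Cxcr4 and Ackr3 proteins bind. It was expressed at a low level, with a lowest, median and highest level of 1.48, 3.05 and 9.42 TPM in putative unruptured libraries and 0.17, 1.39 and 3.46 TPM in putative ruptured libraries. Post-hCG, these were 2.31, 4.53 and 12.9 TPM for the unruptured side and 0.7, 1.65 and 3.32 TPM for the ruptured side. The sides overlapped in both media, with 9 of 14 putative ruptured libraries below every putative unruptured library and 9 of 13 ruptured libraries below every unruptured library post-hCG. The log2FC between sides was −1.22 ± 0.25 without hCG and −1.32 ± 0.24 post-hCG, and the interaction of side and hCG was −0.09 and did not pass. The log2FC with hCG was 0.66 ± 0.25 on the unruptured side (edgeR, adjusted p = 0.0258) and 0.56 ± 0.24 on the ruptured side (adjusted p = 0.0430). Without unruptured post-hCG replicate 4 the former was 0.44 (adjusted p = 0.105), and without ruptured post-hCG replicate 13 the latter was 0.47 (adjusted p = 0.0907).

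Ccl2 (chr11:82035571-82037453, plus strand) encodes a chemokine that attracts monocytes through the receptor CCR2. Its lowest, median and highest levels were 1.29, 6.01 and 29.1 TPM in putative unruptured libraries and 0, 1.32 and 53.2 TPM in putative ruptured libraries. The highest of these was putative ruptured replicate 1, which held 58.6% of the 145 counts of its group, while 4 of the 14 libraries had no count. The log2FC between these sides was −0.50 ± 0.61 with all libraries and −1.65 ± 0.54 without replicate 1, where the gene no longer passed the expression filter and the fit without a filter was used. Post-hCG, the unruptured side had 16 counts in 7 of 12 libraries and the ruptured side 2 counts in 1 of 13, a ratio of 9.13 (95% counting interval 2.15 to 81.8, counting error only). The log2FC with hCG, from the fit without a filter, was −3.48 ± 0.60 for the unruptured side and −5.24 ± 0.98 for the ruptured side. On the unruptured side it was −3.09 without putative unruptured replicate 10, which held the most counts, and −4.25 without unruptured post-hCG replicate 4. On the ruptured side it was −4.11 without putative ruptured replicate 1. The levels were lower post-hCG on both sides, and between sides the values rested on few counts or on 1 library.

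Cxcr4 (chr1:128588199-128592293, minus strand) encodes the signalling receptor of CXCL12. It was near the limit of detection without hCG, with 7 counts in 4 of 15 putative unruptured libraries and 7 counts in 6 of 14 putative ruptured libraries, none above 0.61 TPM. Post-hCG it had 37 counts in 11 of 12 unruptured libraries and 76 counts in 13 of 13 ruptured libraries. The lowest, median and highest levels post-hCG were 0, 0.575 and 3.91 TPM for the unruptured side and 0.2, 1.31 and 2.75 TPM for the ruptured side. It passed the expression filter in no comparison of 2 groups. Without the filter, the log2FC with hCG was 2.73 ± 0.56 on the unruptured side (edgeR, adjusted p = 0.00018) and 3.23 ± 0.42 on the ruptured side (adjusted p = 4.8e-08). Between sides it was 0.43 ± 0.65 without hCG and 0.97 ± 0.36 post-hCG.

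Ackr3 (chr1:90203980-90216751, plus strand) encodes an atypical receptor that binds CXCL12 and removes it without the usual G protein signal. Its lowest, median and highest levels were 18.1, 43.6 and 69.1 TPM in putative unruptured libraries and 46.3, 61.9 and 121 TPM in putative ruptured libraries. Post-hCG, they were 0.6, 1.35 and 2.83 TPM for the unruptured side and 0.33, 0.65 and 1.19 TPM for the ruptured side. The sides overlapped in both media, while the media did not overlap on either side. The log2FC between sides was 0.69 ± 0.21 without hCG and −0.83 ± 0.24 post-hCG, the latter without a filter. Without unruptured post-hCG replicate 5, the post-hCG value was −0.71. With hCG, the log2FC was −5.01 ± 0.28 on the unruptured side (edgeR, adjusted p = 7.05e-16) and −6.53 ± 0.21 on the ruptured side (adjusted p = 2.08e-22). These are levels 32.2-fold and 92.2-fold lower. Of the receptors of CXCL12, then, Ackr3 was the higher without hCG, and Cxcr4 had the higher median post-hCG on the ruptured side only, at 1.31 against 0.65 TPM.

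Vcam1 (chr3:116109949-116129688, minus strand) encodes a ligand of integrin α4β1. Its lowest, median and highest levels were 63.6, 123 and 416 TPM in putative unruptured libraries and 31.7, 70.2 and 301 TPM in putative ruptured libraries. These groups overlapped, and the log2FC between them was −0.50 ± 0.30. Post-hCG, the levels were 0.69, 2.72 and 16.4 TPM on the unruptured side, and 0, 0.2 and 3.3 TPM on the ruptured side, where 3 of 13 libraries had no count and 38 counts were found in all. Of the 13 ruptured libraries, 11 lay below every unruptured library, and the log2FC between the sides post-hCG was −3.56 ± 0.51 without a filter. With hCG, the log2FC was −5.40 ± 0.46 on the unruptured side (edgeR, adjusted p = 1.68e-11) and −8.47 ± 0.47 on the ruptured side (adjusted p = 1.76e-16), which are levels 42.4-fold and 354-fold lower. On neither side did the ranges of the media overlap.

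Icam1 (chr9:21015985-21028817, plus strand) encodes a ligand of β2 integrins. Its lowest, median and highest levels were 4.59, 7.22 and 11.5 TPM in putative unruptured libraries and 4.63, 7.06 and 13.8 TPM in putative ruptured libraries, so the sides lay over each other. The log2FC between them was 0.12 ± 0.15. Post-hCG, the levels were 1.48, 1.86 and 2.81 TPM for the unruptured side and 0.63, 1.53 and 1.94 TPM for the ruptured side, with a log2FC of −0.27 ± 0.19. With hCG, the log2FC was −1.94 ± 0.15 on the unruptured side (edgeR, adjusted p = 2.36e-12) and −2.32 ± 0.18 on the ruptured side (adjusted p = 1.09e-12). The media did not overlap on either side.

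**Figure D2:**
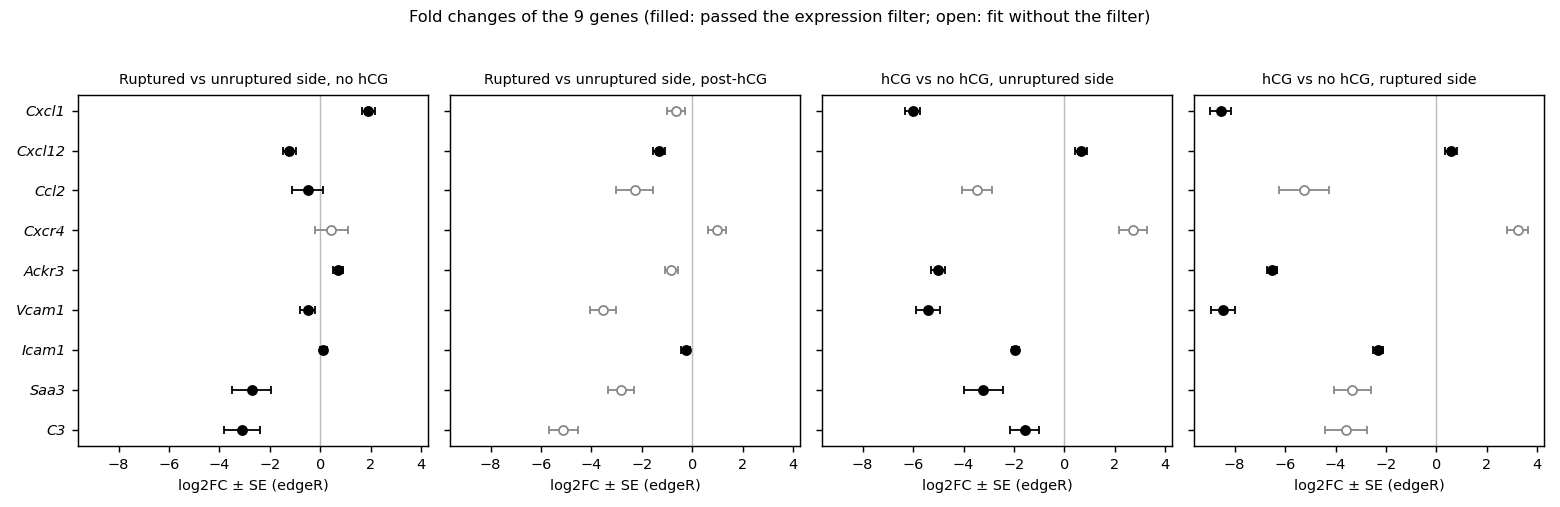
Log2 fold change ± SE of each gene from edgeR on the horizontal axis in 4 comparisons, positive where the level was higher on the ruptured side (left panels) or with hCG (right panels), with filled points for genes that passed the expression filter and open points for the fit without it. With hCG, Cxcl1, Vcam1 and Ackr3 lie farthest to the left on both sides and Cxcr4 and Cxcl12 lie to the right of 0.

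Counted over the comparisons, 5 of 8 genes that passed the expression filter were called between the sides without hCG at a false discovery rate of 0.05, against 17.8% of all 9063 genes tested. Of these, 2 were higher on the putative ruptured side, against 8.84% of all genes, and 3 were lower, against 8.96%. Post-hCG, 2 passed the filter and Cxcl12 was called, against 21.4% of 8585 genes. With hCG, 7 of 7 were called on the unruptured side, against 53.1% of 9320 genes, and 5 of 5 on the ruptured side, against 60.1% of 8531 genes. The higher one was Cxcl12 on each side, against 25.4% and 29.7% of all genes called higher. The TPM ranges of 4 of these did not overlap on each side, all lower post-hCG, against 1.45% and 4.34% of all genes tested. Among the genes under the filter, the fit without it called 0 of 1 between the sides without hCG, where only Cxcr4 was left (adjusted p = 0.73, unadjusted p = 0.509), and 5 of 7 between the sides post-hCG. With hCG it called 2 of 2 on the unruptured side and 4 of 4 on the ruptured side. The background of that fit was 8.49%, 10.8%, 29.5% and 33.7% in the same order. Because the genes were picked with these libraries in view, nothing is read from the counts, and genes that pass a filter through 1 high group are favoured.

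The difference between the responses of the sides to hCG was taken from an interaction term in a fit of all 54 libraries, which called 3 of 8 genes, against 8.91% of 10013 genes, all 3 negative, against 4.65%. The response was more negative on the ruptured side for Vcam1 (−3.08 ± 0.67, edgeR, adjusted p = 0.00179), Cxcl1 (−2.55 ± 0.49, adjusted p = 0.000413) and Ackr3 (−1.53 ± 0.36, adjusted p = 0.00338). The side difference of Cxcl1 post-hCG was −0.65 ± 0.36 without a filter and did not pass, nor did that of Vcam1 without hCG (−0.50 ± 0.30). With limma on log2(TPM + 1), where levels below 1 TPM are compressed, the interaction of Vcam1 was −0.93 (adjusted p = 0.183). C3, Ccl2, Icam1, Saa3 and Cxcl12 had interactions of −2.05, −1.86, −0.38, −0.14 and −0.09 and did not pass.

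Saa3 (chr7:46711998-46715700, minus strand) encodes an acute-phase serum amyloid A protein made outside the liver. It varied more between libraries of a group than any other of the 9 genes, with an SD of 2.05 in log2(TPM + 1) in putative unruptured libraries and 2.42 in putative ruptured libraries. Its lowest, median and highest levels were 1.43, 48.3 and 1221 TPM in putative unruptured libraries and 0, 2.64 and 159 TPM in putative ruptured libraries. Replicate 7 held 1298 counts, 53.5% of those of the putative unruptured side, and replicate 10 held 514, 21.2%. On the putative ruptured side, replicate 11 held 128 counts, 47.8%. Post-hCG, the levels were 3.91, 8.45 and 96.01 TPM on the unruptured side, with 53.7% of the 177 counts in replicate 4, and 0, 0.35 and 3.84 TPM on the ruptured side, with 24 counts in all. The sides did not overlap post-hCG in TPM, by a margin between 3.84 and 3.91 TPM. In counts they did overlap, with 5 at most on the ruptured side and 3 at least on the unruptured side. Counts of Saa3 carried fractions in 27 of the 49 libraries with a value (tolerance 0.001), as they did for Icam1 in 46 of 54 and Vcam1 in 32 of 51, so reads shared with other genes cannot be set apart for these 3.

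Between the sides without hCG the log2FC of Saa3 was −2.73 ± 0.77, and post-hCG it was −2.83 ± 0.52 without a filter. Leaving out each of the 29 libraries without hCG in turn moved the former between −3.51 and −1.75, and the latter was −1.92 without unruptured post-hCG replicate 4. The value of −1.75 ± 0.66 was the one without putative unruptured replicate 7, and it alone of the 29 did not pass the false discovery rate of 0.05. With hCG, the log2FC was −3.21 ± 0.76 on the unruptured side (edgeR, adjusted p = 0.000674). It was −2.23 without putative unruptured replicate 7 and −4.15 without unruptured post-hCG replicate 4. On the ruptured side it was −3.33 ± 0.73 without a filter, and −2.54 without putative ruptured replicate 11.

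C3 (chr17:57203970-57228136, minus strand) encodes the central protein of the complement cascade. Its lowest, median and highest levels were 0.04, 1.66 and 16.7 TPM on the putative unruptured side, where replicate 7 held 53.6% of 707 counts. On the putative ruptured side they were 0, 0.065 and 3.33 TPM, with 56 counts in all and none in 6 of 14 libraries. Post-hCG, the levels were 0.14, 0.865 and 3.86 TPM on the unruptured side, with 156 counts, and 0, 0 and 0.09 TPM on the ruptured side, with 3 counts in 2 of 13 libraries. The sides did not overlap post-hCG in TPM. In counts they met, as the highest ruptured and the lowest unruptured library each held 2. The ratio of the counts was 59.3 (95% counting interval 19.9 to 291). Among the 8585 genes that passed the filter, 1.03% had a lower range on the ruptured side with no overlap. Neither C3 nor Saa3 passed it, so this share is no background for them.

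Between the sides without hCG the log2FC of C3 was −3.12 ± 0.71, and it lay between −3.65 and −2.09 when each library was left out, −2.09 being the value without putative unruptured replicate 7. With hCG on the unruptured side it was −1.58 ± 0.59 (edgeR, adjusted p = 0.0244), and −0.57 without that replicate (adjusted p = 0.233). On the ruptured side it was −3.59 ± 0.83 without a filter, where the counts had a ratio of 22.01 (95% counting interval 7.15 to 110). Of the 9 genes, C3 and Saa3 thus shared the same leading library on the putative unruptured side.

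**Figure D3:**
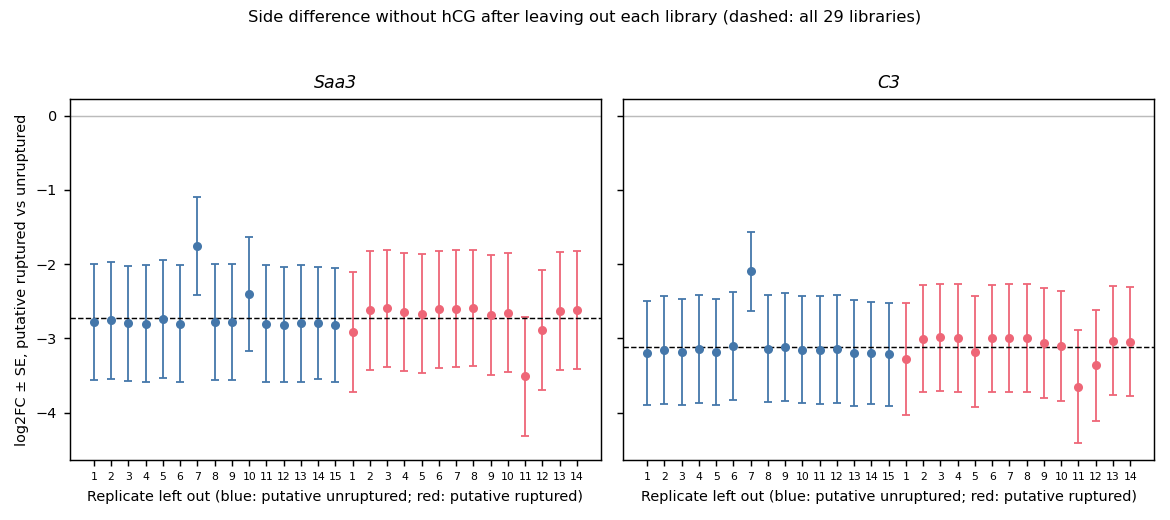
Log2 fold change ± SE of Saa3 and C3 between the putative ruptured and putative unruptured side on the vertical axis after leaving out each library, named on the horizontal axis by replicate and coloured by side, with the value of all 29 libraries as a dashed line. All values lie below 0, and the smallest difference of both genes is that without putative unruptured replicate 7.

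Some of the libraries that led these genes by TPM also had the highest summed level of theca and stroma markers in their group. Over 14 markers, such as the collagen genes Col1a1 and Col3a1, the summed level had a median of 565 TPM (64.0 to 2827) on the putative unruptured side and 151 TPM (70.1 to 639) on the putative ruptured side. Post-hCG it was 377 TPM (126 to 1371) on the unruptured side and 47.9 TPM (27.8 to 92.9) on the ruptured side, where Cyp17a1 and Mfap5 had no count. Putative unruptured replicate 7, which led Saa3 and C3, had the highest sum of its group, as did putative ruptured replicate 1 (Ccl2, Cxcl12 and Ackr3), unruptured post-hCG replicate 4 (Saa3, Ccl2 and Cxcl12) and ruptured post-hCG replicate 13 (Cxcl12 and Ccl2). Others did not, as putative unruptured replicates 2 (Cxcl12) and 10 (Ccl2) ranked 6 and 7 of 15 and putative ruptured replicates 11 (Saa3) and 12 (C3) ranked 3 and 2 of 14. Unruptured post-hCG replicate 6 (C3) ranked 7 of 12, and ruptured post-hCG replicates 5 (Saa3) and 1 (C3) ranked 8 and 9 of 13. By counts the leaders differed in part. Putative unruptured replicate 7 held the most counts of Cxcl12 (65), putative ruptured replicate 11 of C3 (21) and unruptured post-hCG replicate 4 of C3 (48). Of the 14 markers, 10 were tested between the sides without hCG, where 7 were lower on the putative ruptured side and 1 was higher, against 8.96% and 8.84% of all genes. Post-hCG, 5 of 7 were lower, against 11.3% of all genes, and 1 was higher, against 862 of 8585 genes. The part of theca and stroma cells in the side differences of Saa3, C3, Ccl2 and Cxcl12 was not tested.

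**Figure D4:**
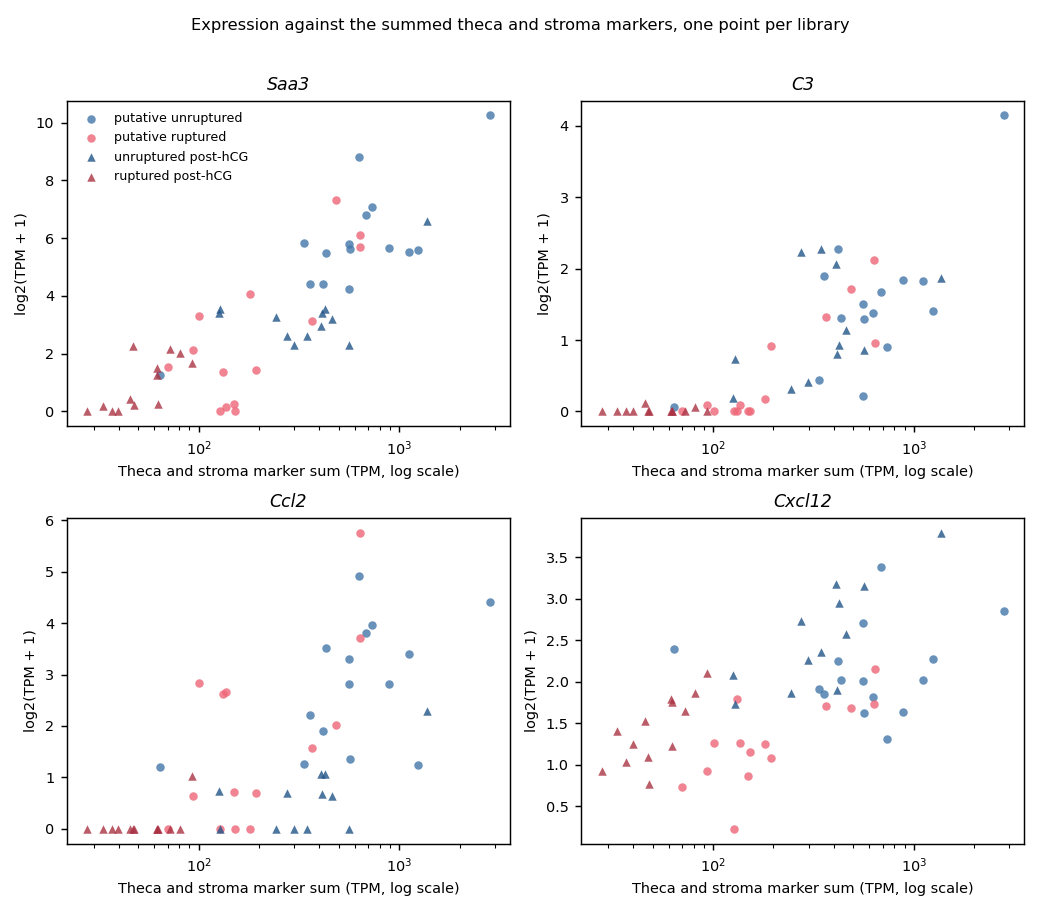
Level of Saa3, C3, Ccl2 and Cxcl12 in log2(TPM + 1) on the vertical axis against the summed level of 14 theca and stroma markers in TPM on a log horizontal axis, 1 point per library, coloured by side with circles for no hCG and triangles for post-hCG. The libraries of the ruptured side post-hCG lie at low sums, 27.8 to 92.9 TPM, with putative unruptured replicate 14 (64.0 TPM) and putative ruptured replicate 2 (70.1 TPM) among them. Putative unruptured replicate 7 lies farthest right at 2827 TPM, where Saa3 and C3 are highest.

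Markers of other cells moved in part with the same libraries. Over 14 leukocyte markers the summed level had medians of 34.8, 3.03, 13.9 and 1.36 TPM on the putative unruptured, putative ruptured, unruptured post-hCG and ruptured post-hCG sides. It ranged from 0.11 to 175, 0.07 to 41.7, 1.16 to 102 and 0.08 to 4.36 TPM in this order. The neutrophil genes S100a8 and S100a9 had no count in any group, and 13 or 14 of the 14 markers had a group median under 1 TPM. Over 7 markers of the ovarian surface epithelium the medians were 0.34, 0.095, 0.91 and 0.07 TPM, and the highest values were 32.2 TPM in putative unruptured replicate 7, 0.41 TPM on the putative ruptured side, 10.2 TPM in unruptured post-hCG replicate 4 and 0.3 TPM on the ruptured side post-hCG. Over 10 endothelial markers the medians lay between 4.15 and 18.4 TPM, and over 7 smooth muscle markers between 3.8 and 51.6 TPM. The part of these cells in the values of the 9 genes was not tested.

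Summed granulosa markers were also lower with hCG, from medians of 4070 and 13150.5 TPM on the putative unruptured and putative ruptured sides to 1564 and 1338 TPM post-hCG. Of the 10 markers, 9 were tested with hCG on each side. On the unruptured side 6 were lower and 3 higher, against 27.7% and 25.4% of all genes. On the ruptured side 6 were lower and 1 higher, against 30.4% and 29.7%. The 6 lower were Cyp19a1, Hsd17b1, Gja1, Fst, Foxl2 and Inha on both sides. Nr5a2 was called higher on both, Fshr and Inhbb on the unruptured side only. Between the sides without hCG, 8 of 9 were higher on the putative ruptured side and 0 lower, against 8.84% and 8.96% of all genes. Post-hCG, 3 of 6 were higher and 0 lower, against 862 of 8585 genes and 11.3%. The part of granulosa cells in the values of the 9 genes was not tested.

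With the 4 groups pooled, Saa3 rose and fell across libraries with Ccl2 and C3. Over all 54 libraries, with each group's mean of log2(TPM + 1) taken out, Pearson's r was 0.63 between Saa3 and Ccl2 and 0.56 between Saa3 and C3. It was 0.47 between Cxcl12 and Ccl2 and 0.44 between Cxcl1 and Ackr3. Against the 9887 other genes whose mean reached 1 TPM, those most like Saa3 were Tgm2 (0.77), Serpina3g (0.76) and Lhfp (0.75), and those most like C3 were Lcn2 (0.69), Gas7 (0.69) and Serpina3n (0.69). Ccl2 was most like Cebpd (0.70), Lhfp (0.65) and Saa3 (0.63), and Cxcl12 like Tmem173 (0.63), Flrt2 (0.62) and Cald1 (0.59). Serpina3g, Serpina3n and Lcn2 are acute-phase genes. Cxcl1 was most like Bex4, Lrrc2 and Nupr1 (0.58, 0.58 and 0.56), Ackr3 like Prss23, Il7 and Heca (0.61 each) and Vcam1 like Me2, Speer4b and Clca3a1 (0.74, 0.63 and 0.63). Icam1 was most like Sbno2, Mybbp1a and Kat7 (0.59, 0.56 and 0.55), and Cxcr4, from few counts, like Ccdc71, Cdc34 and Ube2q2 (0.60, 0.54 and 0.51). No r was taken within a single group. On the ruptured side post-hCG, C3 had a count in 2 and Ccl2 in 1 of 13 libraries. The libraries share cell makeup and depth, so these r values describe the libraries only.

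Of the other chemokine ligands, 32 of 33 listed were in the tables and between 2 and 5 passed the filter in each comparison of 2 groups. Cxcl5, which like Cxcl1 acts on CXCR2, was higher on the putative ruptured side, at medians of 21.8 against 5.65 TPM (log2FC 1.98 ± 0.33, edgeR, adjusted p = 6.79e-05). It fell with hCG by 3.65 on the log2 scale on the unruptured side (adjusted p = 1.05e-09) and by 6.37 on the ruptured side (adjusted p = 5.32e-12). Cx3cl1, a membrane-bound chemokine, rose instead, from medians of 3.42 and 2.44 TPM to 16.6 and 30.6 TPM, with a log2FC of 2.13 ± 0.16 and 2.98 ± 0.13 and an interaction of 0.85 ± 0.21 (adjusted p = 0.00696). For Cxcl14 the putative ruptured side was lower, with a log2FC of −2.29 ± 0.50, as it was for Cxcl16 (−0.51 ± 0.17). Cxcl16 also fell with hCG on the unruptured side, by 1.95 on the log2 scale.

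Chemokine receptors were low throughout, as 1 or 2 of 22 passed the filter in each comparison. Only Ccrl2, an atypical receptor, was called, and it was higher on the ruptured side post-hCG (log2FC 0.89 ± 0.21, edgeR, adjusted p = 0.00271). The receptor of Cxcl1, Cxcr2, which was looked up after its values were seen, had medians of 1.14 to 1.4 TPM over the 4 groups. Ccr2, the receptor of Ccl2, looked up likewise, had a median of 0 in all 4 groups and a count in 2 of the 54 libraries.

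Adhesion molecules other than Vcam1 and Icam1 moved in both directions. Of 20, 9 were tested in each comparison of 2 groups. With hCG 4 were higher on each side, Cd34, Alcam, F11r and Cd47, against 25.4% and 29.7% of all genes on the unruptured and ruptured sides. Of those lower, against 27.7% and 30.4%, Glg1, named like Cd47 after its values were seen, was called on the unruptured side (−0.61 ± 0.12), and Cd44, the hyaluronan receptor, was lower on both, by a log2FC of −1.84 ± 0.22 for the unruptured side and −1.80 ± 0.31 for the ruptured side (edgeR, adjusted p = 2.33e-08 and 6.82e-06). Cd34 had medians of 11.2 and 15.9 TPM without hCG and 66.2 and 28.0 TPM post-hCG. Alcam and Jam2 were higher on the putative ruptured side, by 0.92 ± 0.19 and 0.90 ± 0.16, and on the ruptured side post-hCG, by 0.80 ± 0.16 and 0.77 ± 0.19.

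Integrins that bind VCAM-1 and ICAM-1 were few, as 1 or 2 of 8 passed the filter. Itga9 fell with hCG, by 2.40 ± 0.22 on the log2 scale for the unruptured side and 1.77 ± 0.20 for the ruptured side, and Itgb1, the shared β1 chain, was lower on the putative ruptured side (log2FC −0.68 ± 0.17). The leukocyte integrin genes Itgal and Itgb2, looked up after their values were seen, had medians of 0.25 TPM or less in all 4 groups.

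Other acute-phase genes followed Saa3 in part. Of 24, 5 were tested between the sides without hCG and 4 were lower on the putative ruptured side, namely Serpina3n (−2.10 ± 0.62), Serpina3g (−1.61 ± 0.48), A2m (−1.36 ± 0.43) and Steap4 (−1.24 ± 0.43), against 8.96% of all genes. Post-hCG 2 of 2 were lower on the ruptured side, where Serpina3n had a log2FC of −4.85 ± 0.47 (edgeR, adjusted p = 1.82e-08), against 11.3% of all genes. With hCG on the unruptured side 4 of 6 were lower, against 27.7% of all genes, led by Steap4 (−3.52 ± 0.50). Steap4 had medians of 1.59 TPM without and 0.11 TPM with hCG there, and the filter favours genes high in 1 group. On the ruptured side the 1 gene tested, A2m, was higher (0.98 ± 0.33), against 29.7% of all genes.

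Those of the other complement genes that were tested were lower with hCG on both sides. Of 31 listed, 30 were in the tables, and 9 of 9 tested were lower on the unruptured side and 7 of 7 on the ruptured side, against 27.7% and 30.4% of all genes called lower. The filter favours genes high in 1 group, such as Serping1, with medians of 18.42 and 7.875 TPM without hCG and 2.005 and 0.16 TPM post-hCG. The counts and the median log2FC therefore cover the tested genes only. Serping1, the inhibitor of the C1 complex, had a log2FC of −3.46 ± 0.32 and −5.18 ± 0.40, and Clu, which blocks the terminal complex, −2.42 ± 0.22 and −3.60 ± 0.22. Clu fell from medians of 3865 and 3545 TPM to 641 and 268 TPM. Between the sides without hCG C1s1, C1ra and Serping1 were lower on the putative ruptured side and Masp1 was higher, at 233 against 90.0 TPM (log2FC 1.11 ± 0.23). The median log2FC of the genes tested with hCG was −1.59 for the unruptured side and −2.01 for the ruptured side.

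Genes of the NF-kB and C/EBP pathway were called in both directions with hCG. On the unruptured side 3 were higher and 8 lower of 20 tested. On the ruptured side 6 were higher and 8 lower of 19, with median log2FC of −0.18 and −0.05 on the 2 sides. Of all genes, 25.4% were called higher and 27.7% lower on the unruptured side, and 29.7% and 30.4% on the ruptured side. Among these, the inhibitor gene Tnfaip3 and Nfkbiz, which encodes a nuclear IkB protein, were lower with hCG on both sides, by a log2FC of −1.50 ± 0.25 and −1.05 ± 0.14 on the unruptured and −2.02 ± 0.28 and −1.92 ± 0.21 on the ruptured side. Tnip1 and Nfkb2 were higher on both, by 1.38 ± 0.11 and 1.17 ± 0.12 on the unruptured and 1.26 ± 0.12 and 1.07 ± 0.12 on the ruptured side. Cebpd, which encodes C/EBP delta, was lower on the putative ruptured side (−1.14 ± 0.36, edgeR, adjusted p = 0.0234) and with hCG (−1.66 ± 0.31 and −1.08 ± 0.35). Between the sides without hCG, 1 was higher and 4 lower of 21 tested, against 8.84% and 8.96% of all genes. Post-hCG, 0 were higher and 4 lower of 19, namely Bcl3, Tnfrsf1a, Tnfrsf1b and Il1r1, against 862 of 8585 genes and 11.3%.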

How the data were processed

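RNA-seq libraries of single follicle sides were analysed in 54 samples of 4 groups taken from the labels. The authors aligned Smart-Seq2 reads to GRCm38 with HISAT2 and used ComBat-seq against batch effects. The deposited estimated counts per gene hold fractions (72.2% of values above 0 were whole), and the authors' TPM values are such counts scaled by transcript length and library. The counting program, the annotation and the batches are not given in the sources used here, nor is it stated whether the deposited tables precede the batch correction. All columns matched a sample, with 0 left over. TPM summed to 585982 to 678417 per library.

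Rounded counts were tested by the quasi-likelihood method of edgeR 4.0.16 (R 4.3.3) with TMM scaling, at a Benjamini-Hochberg false discovery rate of 0.05 over all genes tested. Genes had to pass its expression filter, set to a count of at least 10 and a total of at least 15. Each comparison used its own groups, and the interaction all 4. A gene under the filter has the value of the fit without it. SE was the absolute log2FC over the square root of F. Levels are TPM or log2(TPM + 1), in Python 3.11.15 with pandas 2.3.3, numpy 2.4.6 and scipy 1.17.1. Counting intervals are exact at 95% and cover counting error only. Positions are from GENCODE M21.

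The 9 genes and all lists were chosen with earlier results of these data known. Other genes are named if among the 4 with the largest log2FC past the threshold in a list and comparison, or among the 3 most like a gene. On simulated counts with 200 changed genes, edgeR recovered, between the sides without hCG (9063 genes), 84% of those changed 2-fold and 95% of those changed 4-fold. Between the sides post-hCG it recovered 90% and 86%, and for the interaction 72% and 92%. With hCG it recovered 90% and 93% on the unruptured side and 89% and 92% on the ruptured side. Between 5 and 11 unchanged genes were called in each. Alternatives were DESeq2 1.42.0, limma 3.58.1 on log2(TPM + 1) and log2(TPM + 0.1), RLE size factors, library totals, other filters, all 4 groups in 1 fit, a replicate block and left-out libraries. Replicate numbers do not name a shared animal or follicle, and at most 5 of 12 same-numbered pairs in a comparison had a correlation of deviations above 0.1. The main fits therefore have no block, and any pairing of sides by follicle is unknown and left out. No library repeated another of its own group within sampling noise, and pairs across groups were not compared. Single-cell data and images were not analysed here.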

Additional observations from a re-analysis of the deposited data

Results flagged for a closer look

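The response to hCG differed between the sides for 3 of the 9 genes by the interaction term of side and hCG over 54 libraries (edgeR, p adjusted by Benjamini-Hochberg over 10013 genes). The response on the ruptured side minus that on the unruptured side was −3.08 for Vcam1, −2.55 for Cxcl1 and −1.53 for Ackr3 in log2FC. With limma on log2(TPM + 1), that of Vcam1 was −0.93 (adjusted p = 0.183). The levels post-hCG behind these differences are low, with 38 counts of Vcam1 over the 13 ruptured libraries.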

How the results depend on the processing

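Of 458 alternative values of 50 results, 424 kept their direction and their side of the threshold (counts of genes: stayed within 1.5 times), 24 no longer passed, 4 newly passed, 2 counts moved and 4 turned. The count of genes past the threshold between the sides without hCG, 1613, was 1045 with limma on log2(TPM + 1) and 1013 on log2(TPM + 0.1). Scaling by library totals moved the median log2FC of all genes to −0.14 between the sides post-hCG, −0.25 and −0.33 with hCG on the unruptured and ruptured sides and −0.11 for the interaction. The calls then split into 397 higher and 1830 lower, 1455 and 3844, 1376 and 4242, and 230 and 660 (TMM: 862 and 971, 2365 and 2582, 2532 and 2597, 426 and 466), and between the sides without hCG into 585 and 905 (801 and 812). With hCG, the log2FC of Cxcl12 no longer passed on the unruptured side with library totals (0.45) and limma (0.41 and 0.50). On the ruptured side it did not pass with library totals (0.24), no filter (0.57), DESeq2 (0.57), limma (0.14 and 0.28) or all 4 groups in 1 fit (0.57). C3 on the unruptured side did not pass with DESeq2 (−0.57) or limma (−0.33 and −0.47), and Saa3 on the ruptured side not with limma on log2(TPM + 0.1) (−2.31). Between the sides post-hCG, Ccl2 did not pass with DESeq2 (−2.25) or all 4 groups in 1 fit (−2.35), nor Saa3 in the latter (−2.84). Icam1 passed there with limma (−0.33 and −0.52) and Cxcr4 with DESeq2 (0.99). With limma the median log2FC of all genes between these sides was itself −0.21 and −0.26. On log2(TPM + 1) 202 genes were called higher and 2175 lower, so the limma value of Icam1 cannot be told apart from this shift. The interaction of Vcam1 was −0.93 with limma on log2(TPM + 1), and those of Ccl2 (0.63 and 0.47) and Saa3 (0.79 and 0.26) turned positive with limma, none of them called. The median interaction of all genes with limma was −0.19 and −0.24. The cause of these changes was not tested.

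Leaving out single libraries gave a log2FC between the sides without hCG of −3.51 to −1.75 for Saa3 and −3.65 to −2.09 for C3 (29 libraries each). Elsewhere not every library was left out in turn. Ccl2 without hCG was −1.65 without putative ruptured replicate 1, where it passed (edgeR without a filter, adjusted p = 0.0497). It was −0.37 without putative unruptured replicate 7, where it did not pass. Post-hCG, Ccl2 was −1.54 and Ackr3 −0.90 without unruptured replicate 4. Ackr3 was −0.71 without unruptured replicate 5 and did not pass. With hCG on the unruptured side, C3 was −0.57 and Cxcl12 0.77 without putative unruptured replicate 7. They were −1.96 and 0.44 without unruptured post-hCG replicate 4. On the ruptured side Cxcl12 was 0.47 without ruptured post-hCG replicate 13. Fits of all 9 genes without putative unruptured replicate 7 or unruptured post-hCG replicate 4, and left-out fits with no filter, were added after seeing the data.

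With the replicate number as a block, the counts past the threshold were 1405 and 1733 between the sides without and post-hCG, 4378 and 4934 with hCG on the unruptured and ruptured sides and 712 for the interaction. The block changed 1 call among the 9 genes, that of Cxcl12 with hCG on the ruptured side (0.54, adjusted p = 0.0814). Same-numbered libraries had a mean correlation of deviations of −0.028, 0.014, −0.00093 and 0.053 in the 4 comparisons. In 1, 2, 1 and 2 of 14, 12, 12 and 13 pairs the ruptured or post-hCG library was most like the same-numbered library of the other group. The numbers were therefore not taken as pairs. Low totals per group, such as 38 counts of Vcam1, 24 of Saa3, 3 of C3 and 2 of Ccl2 on the ruptured side post-hCG, limit the precision of their fold changes.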
